A study of Drosophila melanogaster with 54 samples.

Results

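The genes described here are the glutathione S-transferases of Drosophila melanogaster whose symbol is Gst followed by a class letter (D, E, O, S, T or Z) and a number. The rule took 35 of the 16719 genes in the count table: 11 of class D (Delta), 14 of class E (Epsilon), 3 of class O (Omega), 1 of class S (Sigma), 4 of class T (Theta) and 2 of class Z (Zeta). The series holds 54 samples of fly heads, and 12 of them, sequenced at the 3' ends of polyA RNA, were used here. The others were not analysed here. Those 12 libraries cross a knockdown of BEAF-32, a chromatin boundary protein that binds DNA, with temperature. Their question was whether BEAF-32 acts in how heads change their transcripts in warmth. Knockdown flies carried a UAS-RNAi transgene against BEAF-32 under actin5C-gal4, a driver active in nearly all cells, and were held at 29 °C (3 libraries) or at 18 °C (3 libraries). Control flies carried the actin5C-gal4 driver without the RNAi transgene, are labelled wild type, and were held at 29 °C (3 libraries) or at 18 °C (3 libraries). All were of the strain labelled YW, were reared at 25 °C and spent 3 days as newly emerged adults at their temperature in 12:12 light and dark. Since the controls lacked any RNAi transgene, loss of BEAF-32 and presence of the transgene cannot be told apart. The sources do not say whether the 3 libraries of a group come from separate cultures, so p-values measure the spread between these libraries only.

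Glutathione S-transferases are enzymes that join the peptide glutathione to reactive (electrophilic) compounds, which makes them soluble and ready for export from the cell. The Delta and Epsilon classes are expanded in insects and are best known for the breakdown of insecticides and plant toxins, while the Omega, Sigma, Theta and Zeta classes are shared with vertebrates and include enzymes of pigment making and amino acid breakdown. In flies the transcription factor cnc, with its partner maf-S and its inhibitor Keap1, drives several of these genes, GstD1 among them.

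Library totals lay between 2905211 and 7146191 counts. BEAF-32 itself averaged 1.97 ± 1.26 CPM (counts scaled to a common library size) in knockdown flies at 29 °C and 34.5 ± 1.47 CPM in control flies at 29 °C (SD, n = 3 each). At 18 °C it averaged 2.61 ± 0.943 CPM in knockdown flies and 35.3 ± 3.52 CPM in control flies (SD, n = 3 each), so that every knockdown library lay below every control. Summed markers of cell types moved with temperature. The 4 eye genes lay at 37009 to 39250 CPM in the 6 libraries at 29 °C and at 21516 to 26817 CPM in the 6 at 18 °C. That sum is set by ninaE and Arr2, and ninaC of the same list went the other way, with 1111 to 1253 CPM at 29 °C and 1300.3 to 1566 CPM at 18 °C. The 4 glial genes lay at 315.9 to 391.8 CPM at 29 °C and 578 to 627 CPM at 18 °C, and the 4 muscle genes lay at 1667 to 2492 CPM at 29 °C and 3282 to 4897 CPM at 18 °C. The 4 neuronal genes summed to 556 to 609.9 CPM at 29 °C and 469 to 517 CPM at 18 °C. Most of that sum is nSyb, and elav was higher at 29 °C too, while brp and Syt1 overlapped between the temperatures. Values of brp were 36.7 to 47.9 CPM at 29 °C and 44.1 to 49.3 CPM at 18 °C. Syt1 had 78.7 to 98.9 CPM at 29 °C and 76.1 to 108 CPM at 18 °C. The 3 blood cell genes summed to 106 to 129 CPM at 29 °C and 52.2 to 85.9 CPM at 18 °C. The sums of the 4 fat body genes overlapped, with 29224 to 45933 CPM at 29 °C and 15044 to 37263 CPM at 18 °C, most of it Yp1. Lsp2 of that list was lower at 29 °C, with 18.4 to 162 CPM against 178 to 721 CPM at 18 °C. In knockdown flies fit had 124 to 177 CPM at 29 °C and 475 to 530 CPM at 18 °C. In control flies fit had 34.4 to 50.4 CPM at 29 °C and 141 to 390 CPM at 18 °C. The part of these markers in the temperature differences below was not tested, and in whole heads fewer cells of a type and less RNA per cell cannot be told apart. Of tissues outside the head, the 5 gut genes summed to 4.54 to 9.18 CPM at 29 °C and 3.24 to 6.69 CPM at 18 °C, most of it Mal-A1. The 3 genes of the Malpighian tubule list summed to 8.39 to 13.4 CPM at 29 °C and 14.4 to 23.5 CPM at 18 °C, most of it Irk3, while Uro had no count. The 3 ovary genes summed to at most 0.200 CPM and the 3 genes of the testis and accessory gland to at most 3.61 CPM, with no count of Cp36, osk or Acp26Aa.

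Of the 35 genes, 29 passed edgeR's filter on low counts and were tested in a fit of all 9056 genes that passed it. The other 6, GstD4, GstD5, GstD6, GstD7, GstD8 and GstE10, stayed at or below 3.03 CPM in every library. A gene counts as raised or lowered where the adjusted p of edgeR's quasi-likelihood test was under 0.05 (Benjamini-Hochberg over the 9056 genes). Every adjusted p below is from that test unless DESeq2 or another setting is named. For a result "without" a library, the filter, scaling and fit were run again on the libraries left. The adjustment then ran over the genes that passed the filter there. The filter asks for about 1.99 CPM in 3 libraries. GstE4 met it in the 3 knockdown libraries at 18 °C, where it is high, and in 1 other, and GstD11 met it in 3 libraries, all at 18 °C. These members could be tested only because they are high there, so the counts are also given without both. At 29 °C against 18 °C, 4 of the 29 tested genes rose and 10 fell in knockdown flies, or 48.3% called (4 and 9 of 27 without GstE4 and GstD11). Among all genes tested 35.5% were called (16.6% raised, 18.9% lowered). In control flies 6 rose and 10 fell, 55.2% called, where 38% of all genes tested were called (18.2% raised, 19.8% lowered). With the 2 genotypes side by side, 11 members were called in the same direction in both, 3 raised and 8 lowered. That is 78.6% of the 14 called in knockdown flies and 68.8% of the 16 called in control flies. Over all genes tested these shares were 69.1% and 64.6%. The median log2 fold change of the 29 was -0.10 in knockdown and -0.02 in control flies, beside -0.01 and 0.00 over all genes. Knockdown against control gave 1 raised and 7 lowered members at 29 °C (27.6% called, where 14.7% of all genes were called, 7.14% raised and 7.56% lowered). At 18 °C it gave 3 raised and 6 lowered (31% called, where 14.1% of all genes were called, 6.63% raised and 7.5% lowered; 2 and 6 of 27 without GstE4 and GstD11). GstE14 and GstO3 were lowered by the knockdown at both temperatures, which is 25% of the members called at 29 °C and 22.2% of those called at 18 °C, beside 42.3% and 44% over all genes. The median log2 fold change of the 29 for the knockdown was -0.25 at 29 °C and -0.12 at 18 °C, beside 0.01 at each temperature over all genes.

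**Figure D1:**
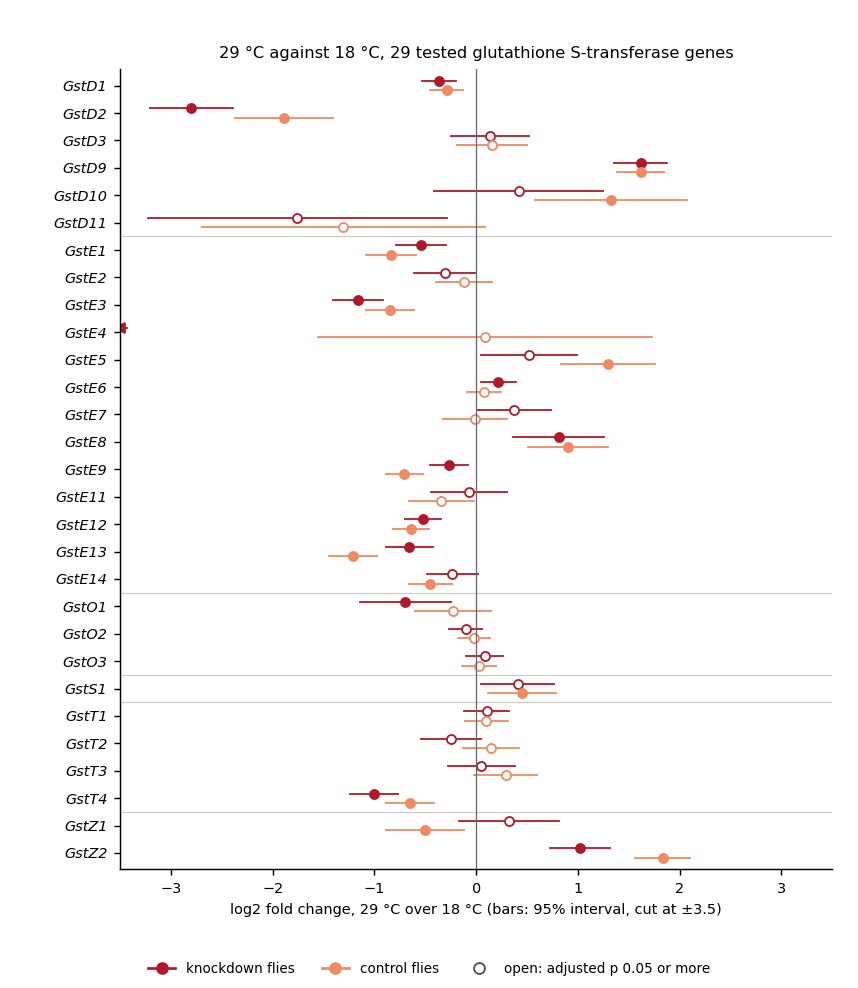
Log2 fold change at 29 °C over 18 °C of the 29 tested glutathione S-transferase genes, by class, in knockdown flies (dark red, upper point) and control flies (orange, lower point). Filled points passed an adjusted p of 0.05, bars are 95% intervals, and the axis is cut at ±3.5, so that GstE4 in knockdown flies (-5.16) is drawn as an arrow at the left edge.

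**Figure D2:**
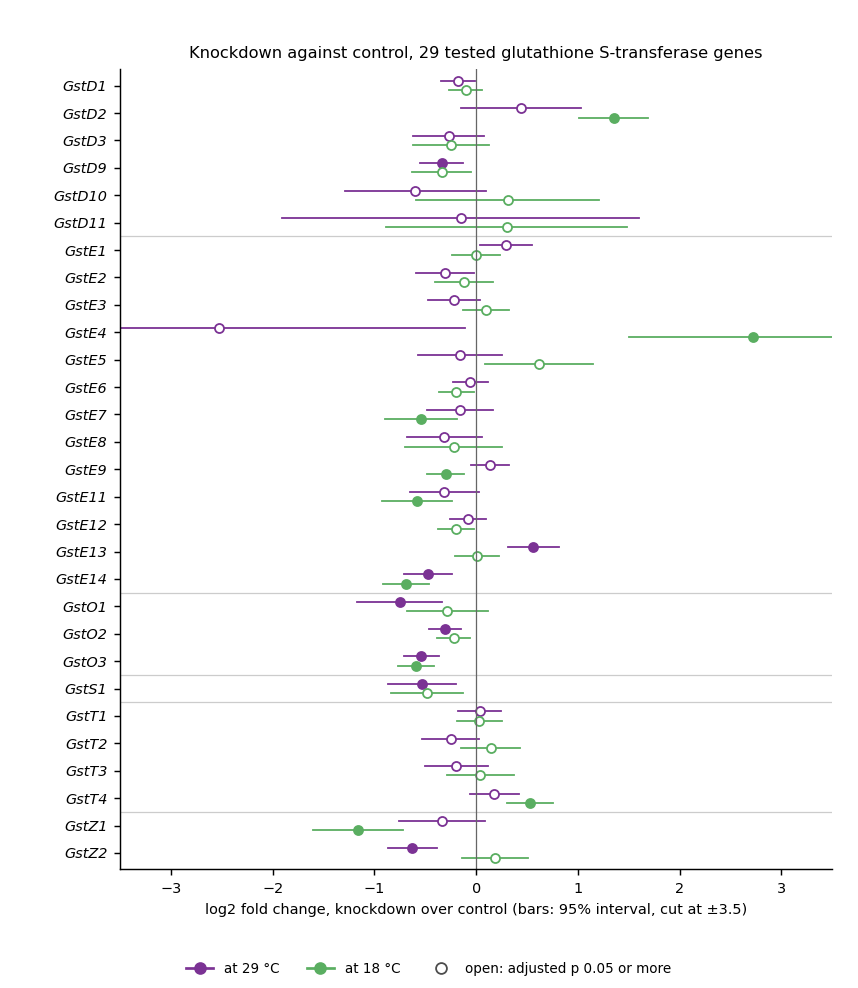
Log2 fold change of knockdown over control of the same 29 genes at 29 °C (purple, upper point) and at 18 °C (green, lower point). Filled points passed an adjusted p of 0.05, bars are 95% intervals cut at ±3.5, and all 3 Omega genes lie left of 0 at both temperatures.

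The summed level of the 35 genes was lower at 29 °C in both genotypes. It averaged 2126 CPM in knockdown flies at 29 °C and 2604 CPM in knockdown flies at 18 °C, 18.4% lower at 29 °C. In control flies it averaged 2367 CPM at 29 °C and 2897 CPM at 18 °C, 18.3% lower at 29 °C. A class sum follows its most counted gene: GstE12 gave 54.9% of the counts of class E, GstD1 86.1% of class D, GstO2 51.8% of class O, GstT4 49.1% of class T and GstZ2 77.8% of class Z. The classes did not move as one. The class E sum was 23.3% lower at 29 °C in knockdown and 30.6% lower in control flies. The class Z sum was 82.1% higher at 29 °C in knockdown and 126% higher in control flies; these sums were not tested.

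Class D lies in 1 run of 11 genes on chromosome arm 3R, in the order GstD10, GstD9, GstD1, GstD2, GstD3, GstD4, GstD5, GstD6, GstD7, GstD8 and GstD11, with a non-coding RNA gene between GstD1 and GstD2 and CG10035 before GstD11 (order from RefSeq, Release 6 assembly). At 29 °C against 18 °C, 1 of the 6 tested members rose and 2 fell in knockdown flies, and 2 rose and 2 fell in control flies. Over all genes tested, 16.6% rose and 18.9% fell in knockdown flies, and 18.2% rose and 19.8% fell in control flies. The neighbours GstD9 and GstD1 went opposite ways in both genotypes.

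GstD9 rose at 29 °C in both genotypes. It stood at 51.3, 60.4 and 60.6 CPM in knockdown flies at 29 °C, against 16.5, 24.6 and 16.2 CPM at 18 °C. GstD9 in control flies had 75.5, 72.7 and 69.6 CPM at 29 °C, against 24.8, 22.1 and 24.4 CPM at 18 °C. All 6 libraries at 29 °C lay above all 6 at 18 °C. The rise was 3.07-fold in knockdown flies (log2 fold change 1.62 ± 0.13 SE, adjusted p = 3.32e-09) and 3.07-fold in control flies (log2 fold change 1.62 ± 0.11 SE, adjusted p = 4.75e-10). At 29 °C the knockdown libraries lay below the controls (log2 fold change -0.34 ± 0.10 SE, adjusted p = 0.0265). That last call was lost without control 29 °C library 1 (adjusted p = 0.0904) or 2 (0.066). It was also lost without knockdown 29 °C library 1 (0.149) and by DESeq2 (0.0962). At 18 °C the genotypes overlapped, with a like log2 fold change for the knockdown and no call (-0.34, adjusted p = 0.114). That difference passed the threshold without knockdown 18 °C library 2 (-0.53, 0.0104).

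Next to it, GstD1, an enzyme able to break down DDT by removing hydrogen chloride, fell at 29 °C. Its values were 415, 449 and 456 CPM in knockdown flies at 29 °C, against 569, 547 and 585 CPM at 18 °C (log2 fold change -0.37 ± 0.079 SE, adjusted p = 9.81e-04). GstD1 in control flies had 484, 478 and 533 CPM at 29 °C, against 607, 651 and 568 CPM at 18 °C (log2 fold change -0.29 ± 0.078 SE, adjusted p = 0.00582). The groups did not overlap in either genotype, and the falls were 1.29-fold and 1.22-fold. The knockdown was not called for GstD1 at 29 °C (log2 fold change -0.18, 95% interval -0.34 to -0.016) or at 18 °C (-0.10, -0.27 to 0.061).

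GstD2 had the largest fall of the class with temperature and was the class's single gene raised by the knockdown at 18 °C. It stood at 3.22, 4.37 and 2.84 CPM in knockdown flies at 29 °C, against 22.7, 24.9 and 27.1 CPM at 18 °C. GstD2 in control flies had 2.65, 2.20 and 3.00 CPM at 29 °C, against 10.9, 10.2 and 7.77 CPM at 18 °C. Within each genotype the 29 °C libraries lay below those at 18 °C, 6.97-fold in knockdown flies (log2 fold change -2.80 ± 0.20 SE, adjusted p = 8.19e-10) and 3.71-fold in control flies (log2 fold change -1.89 ± 0.23 SE, adjusted p = 1.47e-06). At 18 °C all knockdown libraries were above all controls, 2.55-fold (log2 fold change 1.35 ± 0.16 SE, adjusted p = 3.94e-06). At 29 °C the 2 genotypes overlapped (log2 fold change 0.44, 95% interval -0.15 to 1.03, adjusted p = 0.338). The difference between its temperature effects in the genotypes did not pass the threshold (interaction -0.91 ± 0.33 (SE), adjusted p = 0.187).

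GstD10, at the outer end of the run, rose at 29 °C in control flies, with 6.32, 4.79 and 8.42 CPM against 3.44, 3.12 and 0.536 CPM at 18 °C (log2 fold change 1.33 ± 0.36 SE, adjusted p = 0.0056). In knockdown flies it had 5.87, 3.40 and 3.61 CPM at 29 °C, against 2.70, 4.04 and 3.06 CPM at 18 °C, and these overlapped (log2 fold change 0.42, 95% interval -0.42 to 1.25). The temperature effects of the 2 genotypes were not called different (adjusted p = 0.505). GstD3 lay between 17.1 and 30.9 CPM and GstD11 between 0 and 3.03 CPM over the 12 libraries, and neither was called in any comparison. GstD11 had 9 counts in all at 29 °C and 23 at 18 °C in knockdown flies (log2 fold change -1.76, adjusted p = 0.0577). This passed the threshold without knockdown 18 °C library 1 (0.03) and with library totals alone (0.0369). It also passed without the filter on low counts (0.0365) and with a replicate block (0.0447). GstD11 met the filter through libraries at 18 °C alone, so this difference is no independent test of its level there.

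**Figure D3:**
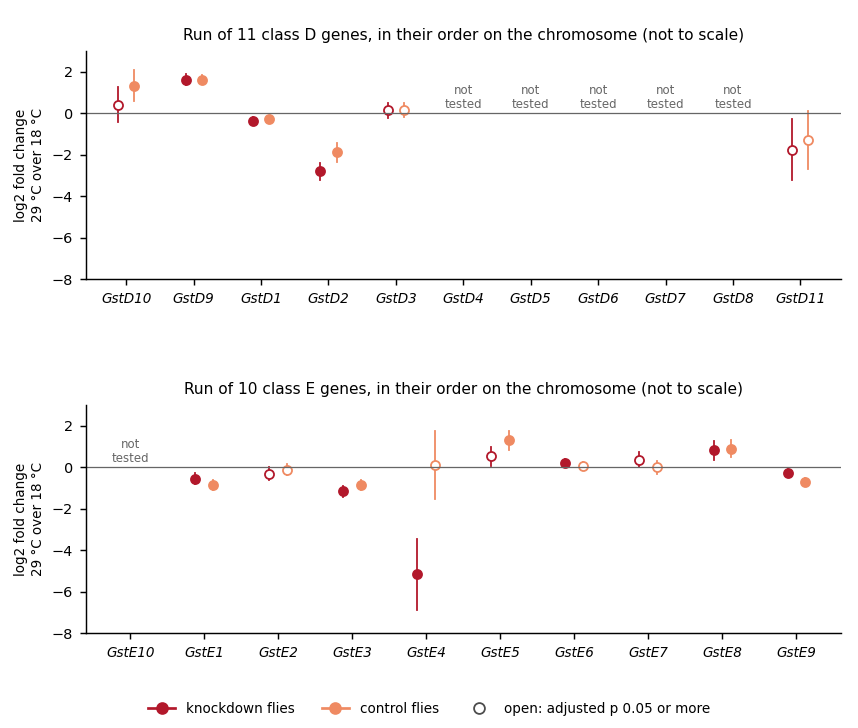
Log2 fold change at 29 °C over 18 °C along the run of 11 class D genes (upper panel) and the run of 10 class E genes (lower panel), in chromosome order and not to distance, with knockdown flies in dark red and control flies in orange. Filled points passed an adjusted p of 0.05 and bars are 95% intervals; raised genes such as GstD9 and GstE8 stand beside lowered ones such as GstD1 and GstE9.

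Class E has a run of 10 genes on 2R, in the order GstE10, GstE1, GstE2, GstE3, GstE4, GstE5, GstE6, GstE7, GstE8 and GstE9, and 4 members elsewhere on that arm. In the run, 9 genes were tested: 2 rose and 4 fell at 29 °C in knockdown flies, and 2 rose and 3 fell in control flies. GstE4 is among the 4 that fell in knockdown flies, and it met the filter through knockdown flies at 18 °C, where it is high. Over all genes tested, 16.6% rose and 18.9% fell in knockdown flies, and 18.2% rose and 19.8% fell in control flies. How reads that fit several similar neighbours were counted is not given in the sources used here, so values of neighbours may share reads. In no case did a member and another gene have near-equal counts throughout the libraries (tolerance 5% or 2 counts). GstE1 overlaps GstE10, GstE9 overlaps imd, GstE12 overlaps CG3894 and GstE13 overlaps CG18659 in RefSeq. Without a stated strand setting the reads of such pairs cannot be told apart.

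GstE3 and GstE1 fell at 29 °C in both genotypes. For GstE3 the values were 29.3, 37.1 and 30.4 CPM in knockdown flies at 29 °C, against 70.03, 83.5 and 66.3 CPM at 18 °C. GstE3 in control flies had 32.8, 38.7 and 41.7 CPM at 29 °C, against 70.02, 72.6 and 60.3 CPM at 18 °C. Every 29 °C library was below every 18 °C library, 2.24-fold in knockdown flies (log2 fold change -1.16 ± 0.12 SE, adjusted p = 1.33e-07) and 1.80-fold in control flies (log2 fold change -0.85 ± 0.11 SE, adjusted p = 4.09e-06). GstE1 had 25.5, 29.3 and 27.1 CPM in knockdown flies at 29 °C, against 38.4, 36.4 and 44.00 CPM at 18 °C. GstE1 in control flies had 25.1, 21.4 and 20.8 CPM at 29 °C, against 38.4, 36.4 and 46.9 CPM at 18 °C. Its 29 °C libraries too were all below those at 18 °C (log2 fold change -0.54 ± 0.12 SE, adjusted p = 0.00115, in knockdown flies; log2 fold change -0.84 ± 0.12 SE, adjusted p = 8.07e-06, in control flies). Neither gene was called for the knockdown at 29 °C or at 18 °C.

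GstE9, at the far end of the run, was lower at 29 °C in control flies, with 192, 163 and 176 CPM against 293, 291 and 280.3 CPM at 18 °C, and these groups did not overlap (log2 fold change -0.71 ± 0.089 SE, adjusted p = 2.24e-06). In knockdown flies it had 185, 208 and 188 CPM at 29 °C, against 260.1, 235 and 208 CPM at 18 °C. There 1 value at 18 °C lay within the range at 29 °C, and the call still passed (log2 fold change -0.27 ± 0.090 SE, adjusted p = 0.0226). At 18 °C the knockdown libraries were below the controls (log2 fold change -0.30 ± 0.089 SE, adjusted p = 0.025). The interaction was 0.43 ± 0.13 (SE), with an adjusted p of 0.0769. It passed the threshold by DESeq2 (0.0278) and without knockdown 18 °C library 1 (0.0385). The temperature call in knockdown flies was lost without knockdown 18 °C library 1 (log2 fold change -0.18, adjusted p = 0.173) or 2 (0.0517). It was lost too without knockdown 29 °C library 1 (0.088) or 3 (0.0777). The knockdown call at 18 °C was lost without control 18 °C library 1 (0.0838) or 2 (0.0617). So it was without knockdown 18 °C library 2 (0.0562) or 3 (0.164).

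GstE8 rose at 29 °C in both genotypes, beside GstE9, which fell. It had 11.7, 15.1 and 14.95 CPM in knockdown flies at 29 °C, against 10.5, 5.73 and 7.22 CPM at 18 °C (log2 fold change 0.81 ± 0.22 SE, adjusted p = 0.00572). GstE8 in control flies had 21.2, 13.8 and 16.8 CPM at 29 °C, against 9.59, 9.64 and 8.04 CPM at 18 °C (log2 fold change 0.90 ± 0.19 SE, adjusted p = 6.19e-04). The 29 °C libraries lay above those at 18 °C in each genotype. The call in knockdown flies was lost without the 3 libraries high in olfactory genes described below (log2 fold change 0.40, adjusted p = 0.309). GstE5 rose in control flies, with 18.8, 17.4 and 12.5 CPM at 29 °C against 6.51, 6.38 and 6.97 CPM at 18 °C, 2.46-fold (log2 fold change 1.30 ± 0.22 SE, adjusted p = 9.00e-05). In knockdown flies GstE5 had 9.27, 16.7 and 18.04 CPM at 29 °C, against 9.19, 12.1 and 9.41 CPM at 18 °C. These overlapped through knockdown 29 °C library 1, and the change was not called (adjusted p = 0.0794; 0.00492 without that library).

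GstE6 and GstE7 each gained a single call close to the threshold. GstE6 stood at 163, 177 and 171 CPM in knockdown flies at 29 °C, against 151, 135 and 153 CPM at 18 °C, groups that did not overlap (log2 fold change 0.22 ± 0.083 SE, adjusted p = 0.0468). GstE6 in control flies had 196, 166 and 169.6 CPM at 29 °C, against 166, 168 and 169 CPM at 18 °C. That call was lost in 14 of 20 other settings, among them DESeq2 (0.0715) and library totals alone (0.524). It was lost without control 18 °C library 1 (0.052) or 3 (0.0539) or control 29 °C library 3 (0.0517). Leaving out knockdown 18 °C library 1 (0.0534), 2 (0.176) or 3 (0.056), or knockdown 29 °C library 2 (0.14) or 3 (0.0961), ended it as well. GstE7 was lower in knockdown flies at 18 °C, with 9.73, 17.5 and 14.4 CPM against 22.4, 19.4 and 17.95 CPM in control flies (log2 fold change -0.54 ± 0.17 SE, adjusted p = 0.0361). At 29 °C GstE7 had 18.5, 19.4 and 14.7 CPM in knockdown flies, against 18.97, 19.6 and 21.2 CPM in control flies. The 18 °C groups did not overlap, and the 29 °C groups did. The call at 18 °C was lost by DESeq2 (0.0958) and without control 18 °C library 1 (0.132) or 2 (0.0583). It was lost, too, without knockdown 18 °C library 1 (log2 fold change -0.36, 0.198) or 3 (0.0751). GstE2 lay between 24.8 and 46.1 CPM over the 12 libraries and was called in no comparison. Without knockdown 29 °C library 3 it passed the threshold at 29 °C against 18 °C in knockdown flies (0.0199) and for knockdown at 29 °C (0.0385).

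GstE4 had the largest fold changes of the tested members and rested on few counts. It was in the tested set through knockdown flies at 18 °C, its highest group, so its fitted differences from that group describe the values and are no independent test of them. It had 1 count in each knockdown library at 29 °C (0.189, 0.162 and 0.258 CPM), against 10, 32 and 47 counts in knockdown libraries 1, 2 and 3 at 18 °C (2.70, 10.8 and 10.3 CPM). In control flies it had 15, 2 and 2 counts at 29 °C (3.06, 0.399 and 0.374 CPM), against 6, 14 and 0 counts at 18 °C (1.09 and 1.90 CPM, with a floor of 0.804 CPM set by 3 counts for the library with none). In knockdown flies the 29 °C libraries lay below those at 18 °C (log2 fold change -5.16 ± 0.83 SE, adjusted p = 4.93e-05). The summed counts were 3 and 89, a ratio of 0.0247 (95% interval 0.00500 to 0.0745 for counting error only). In control flies the groups overlapped, with 19 counts at 29 °C and 20 at 18 °C (ratio 1.04, 95% interval 0.523 to 2.04). The fitted interaction was -5.25 ± 1.27 on the log2 scale (SE, adjusted p = 0.032). At 18 °C knockdown flies lay above control flies (89 counts against 20, ratio 6.58, 95% interval 4.02 to 11.3, log2 fold change 2.72 ± 0.58 SE, adjusted p = 0.00238). At 29 °C knockdown flies lay below control flies (3 counts against 19) without a call (log2 fold change -2.53, adjusted p = 0.163). That difference passed the threshold without the filter on low counts (0.0118). Fitted fold changes at such counts depend on the prior count of the fit.

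A sum of 10 olfactory marker genes stood high in the same libraries as GstE4. The summed level of 10 genes of the olfactory list (Obp83a, Obp83b, lush, Obp69a, Obp28a, Obp19a, Obp59a, Obp84a, Orco and Snmp1) was 247.9 and 164.6 CPM in knockdown 18 °C libraries 2 and 3, 33.5 CPM in knockdown 18 °C library 1 and 6.62 to 10.6 CPM in the knockdown libraries at 29 °C. In control flies it was 49.8, 12.98 and 18.3 CPM at 29 °C and 23.9, 31.6 and 17.1 CPM at 18 °C. The 11th gene of the list, Obp19d, was left out of this sum after its values were seen, because at 743 to 1390.3 CPM it sets the sum. With it the list ran at 757 to 889 CPM in knockdown flies at 29 °C. Knockdown 18 °C libraries 1, 2 and 3 then had 1328, 1638 and 1166 CPM, so that library 1 lay above library 3. Control flies had 867, 854 and 762 CPM at 29 °C and 1051 to 1084 CPM at 18 °C. The 3 libraries called high in olfactory genes in this text were picked by the sum of 10 genes. They are knockdown 18 °C libraries 2 and 3 and control 29 °C library 1. With Obp19d, that control library lay below every library at 18 °C. Of the 10 genes, Snmp1 had 5.69 CPM in knockdown 18 °C library 3 and 8.14 CPM in control 18 °C library 1. Without knockdown 18 °C libraries 2 and 3 and control 29 °C library 1, knockdown flies at 18 °C are 1 library, so only effect sizes of GstE4 are given. The log2 fold change for temperature in knockdown flies was then -3.63 (-5.16 with all libraries). That for the knockdown at 18 °C was 1.21 (2.72), and the interaction was -2.11 (-5.25). These values still rest on the group through which GstE4 met the filter and are no independent test of it. The interaction was lost without control 29 °C library 1 alone (0.358) or knockdown 18 °C library 3 (0.0658). It was lost again without knockdown 29 °C library 1 (0.0797), 2 (0.0786) or 3 (0.0678). The part of antennal tissue in these values was not tested.

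**Figure D4:**
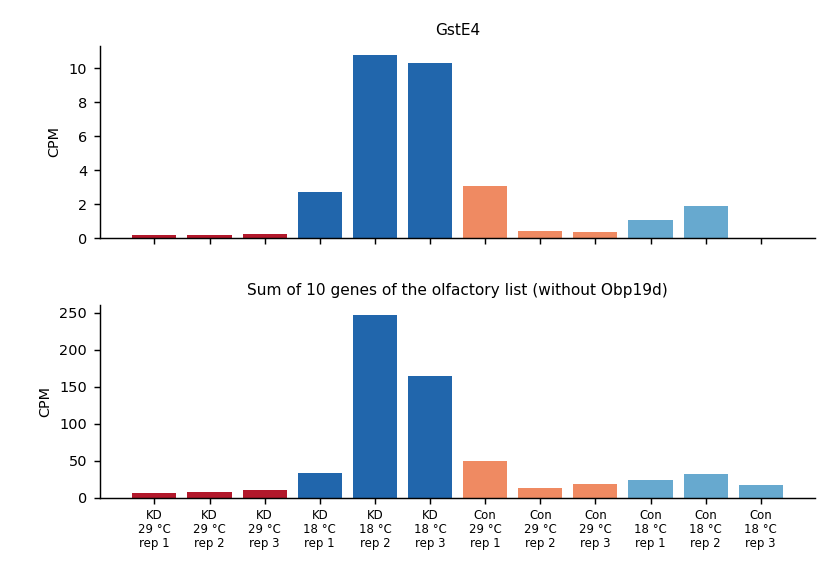
CPM of GstE4 (upper panel) and the summed CPM of 10 olfactory marker genes (lower panel) in each of the 12 libraries, with knockdown (KD) left of control (Con) and 29 °C left of 18 °C. Knockdown 18 °C libraries 2 and 3 are the highest in both panels, with 10.8 and 10.3 CPM of GstE4 and 247.9 and 164.6 CPM of the olfactory genes.

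Outside the run, GstE12 and GstE13 fell at 29 °C in both genotypes. GstE12 had 598, 597 and 592 CPM in knockdown flies at 29 °C, against 927, 898 and 744 CPM at 18 °C (log2 fold change -0.52 ± 0.086 SE, adjusted p = 6.04e-05). GstE12 in control flies had 661, 642 and 586 CPM at 29 °C, against 995, 937 and 1019.6 CPM at 18 °C (log2 fold change -0.64 ± 0.085 SE, adjusted p = 4.10e-06). GstE13 had 22.5, 22.98 and 24.7 CPM in knockdown flies at 29 °C, against 35.96, 38.1 and 36.6 CPM at 18 °C (log2 fold change -0.66 ± 0.11 SE, adjusted p = 8.34e-05). GstE13 in control flies had 14.5, 15.4 and 17.4 CPM at 29 °C, against 38.4, 32.8 and 39.7 CPM at 18 °C (log2 fold change -1.21 ± 0.11 SE, adjusted p = 3.45e-08). For both genes all 29 °C libraries lay below all 18 °C libraries. GstE13 was the single member raised by the knockdown at 29 °C, 1.48-fold with no overlap between genotypes (log2 fold change 0.56 ± 0.12 SE, adjusted p = 0.00251). At 18 °C the genotypes overlapped (log2 fold change 0.007, 95% interval -0.21 to 0.22). Its interaction had an adjusted p of 0.0697 (0.56 ± 0.16, SE) and passed the threshold without control 18 °C library 2 (0.0309).

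GstE14, also named nobo, which acts in making the moulting hormone ecdysone, was lowered by the knockdown at both temperatures. It had 18.4, 20.9 and 22.2 CPM in knockdown flies at 29 °C, against 27.7, 29.96 and 27.3 CPM in control flies at 29 °C (log2 fold change -0.48 ± 0.11 SE, adjusted p = 0.00563). At 18 °C GstE14 had 24.9, 22.9 and 24.1 CPM in knockdown flies, against 37.1, 36.6 and 43.4 CPM in control flies (log2 fold change -0.69 ± 0.11 SE, adjusted p = 1.27e-04). All knockdown libraries were below all control libraries. With temperature it fell in control flies (log2 fold change -0.45 ± 0.10 SE, adjusted p = 0.00143). In knockdown flies its 29 °C libraries lay below those at 18 °C without passing the test (log2 fold change -0.24, adjusted p = 0.135). GstE11 was lower in knockdown flies at 18 °C, with 12.4, 15.5 and 11.8 CPM against 17.9, 22.5 and 17.1 CPM in control flies (log2 fold change -0.58 ± 0.17 SE, adjusted p = 0.02). At 29 °C GstE11 had 15.1, 10.5 and 11.6 CPM in knockdown flies, against 16.1, 14.2 and 15.9 CPM in control flies. The GstE11 groups overlapped at 29 °C and not at 18 °C. Its call was lost by DESeq2 (0.0905) and without control 18 °C library 2 (0.148) or knockdown 18 °C library 1 (0.0664) or 3 (0.118).

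**Figure D5:**
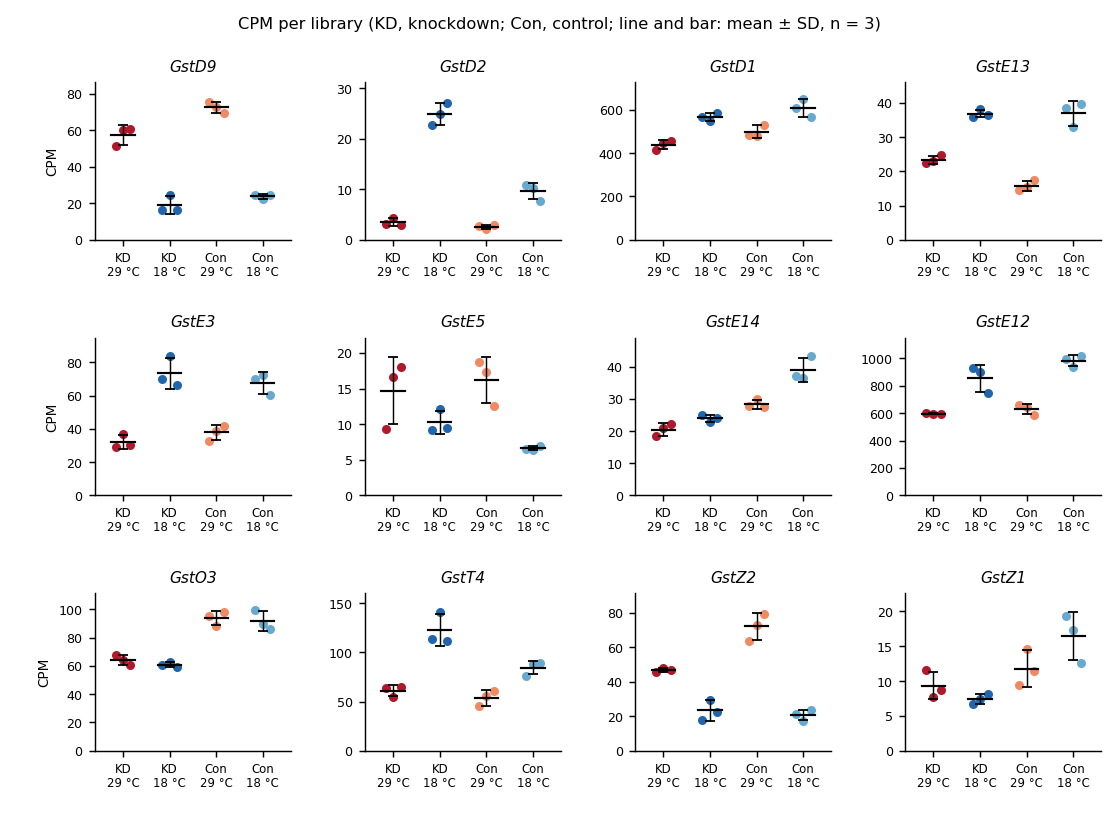
CPM in each of the 12 libraries (points) of 12 glutathione S-transferase genes, with the mean and SD of each group of 3 as a line and bar; knockdown (KD) stands left of control (Con) and 29 °C left of 18 °C, and each panel has its own scale from 0. GstD9 and GstZ2 are high at 29 °C, GstD2, GstE3 and GstT4 are high at 18 °C, and GstE14 and GstO3 are low in both knockdown groups.

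In the Omega class the calls fell mostly on the knockdown. All 3 genes were lowered by it at 29 °C and GstO3 at 18 °C as well, while temperature called GstO1 alone, in knockdown flies. Of all genes tested, the knockdown lowered 7.56% at 29 °C and 7.5% at 18 °C. The 3 lie together on 3L with se (sepia), a 4th Omega enzyme that makes a precursor of the red eye pigments, between GstO3 and GstO2. GstO3 had 68.1, 64.2 and 60.8 CPM in knockdown flies at 29 °C, against 95.5, 88.1 and 98.3 CPM in control flies at 29 °C. At 18 °C GstO3 had 60.6, 62.6 and 59.5 CPM in knockdown flies, against 99.5, 89.7 and 86.01 CPM in control flies. All 6 knockdown libraries were below all 6 control libraries, 1.46-fold at 29 °C (log2 fold change -0.54 ± 0.083 SE, adjusted p = 8.35e-05) and 1.51-fold at 18 °C (log2 fold change -0.59 ± 0.085 SE, adjusted p = 3.40e-05). Within a genotype the temperature groups of GstO3 overlapped, with 95% intervals of the log2 fold change of -0.097 to 0.27 in knockdown and -0.14 to 0.20 in control flies.

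GstO2 had 86.1, 85.9 and 79.4 CPM in knockdown flies at 29 °C, against 99.7, 103 and 109 CPM in control flies at 29 °C (log2 fold change -0.31 ± 0.076 SE, adjusted p = 0.00771). At 18 °C GstO2 had 90.04, 92.6 and 88.4 CPM in knockdown flies, against 109, 103 and 104 CPM in control flies (log2 fold change -0.22, adjusted p = 0.0584). No knockdown library reached the lowest control. GstO1 had 6.05, 7.93 and 5.67 CPM in knockdown flies at 29 °C, against 8.97, 10.8 and 13.9 CPM in control flies at 29 °C (log2 fold change -0.75 ± 0.20 SE, adjusted p = 0.0145). At 18 °C GstO1 had 12.2, 9.09 and 10.9 CPM in knockdown flies, against 11.6, 13.8 and 14.2 CPM in control flies. Its knockdown libraries at 29 °C lay below the other 9 libraries, and it fell at 29 °C in knockdown flies (log2 fold change -0.70 ± 0.21 SE, adjusted p = 0.0146). The GstO1 call for knockdown at 29 °C was lost without control 29 °C library 3 (0.117) or knockdown 29 °C library 1 (0.0657) or 3 (0.0541). That for temperature was lost without knockdown 18 °C library 1 (0.0695) or knockdown 29 °C library 1 (0.0548).

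Their neighbour se, which the symbol rule does not take, moved further in the same direction. It had 32.4, 37.7 and 37.9 CPM in knockdown flies at 29 °C, against 77.9, 85.3 and 75.6 CPM in control flies at 29 °C (log2 fold change -1.15 ± 0.10 SE, adjusted p = 7.39e-08). At 18 °C se had 64.1, 60.3 and 50.8 CPM in knockdown flies, against 147, 124 and 139 CPM in control flies (log2 fold change -1.23 ± 0.099 SE, adjusted p = 1.53e-08). All knockdown libraries were below all controls. It also fell with temperature in both genotypes (log2 fold change -0.69 ± 0.11 SE, adjusted p = 3.63e-05, in knockdown flies; log2 fold change -0.78 ± 0.094 SE, adjusted p = 1.27e-06, in control flies). The RefSeq models of se and GstO2 overlap, and without a stated strand setting their reads cannot be told apart.

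GstS1, the single Sigma member, is an abundant enzyme of fly flight muscle that acts on products of lipid oxidation. It had 94.2, 88.8 and 92.8 CPM in knockdown flies at 29 °C, against 69.5, 73.1 and 65.9 CPM at 18 °C (log2 fold change 0.41, adjusted p = 0.0693), and 100.3, 193 and 106 CPM in control flies at 29 °C, against 87.4, 99.6 and 105 CPM at 18 °C (log2 fold change 0.45 ± 0.16 SE, adjusted p = 0.0302). Control 29 °C library 2 stood apart from the other 11, and the control groups overlapped. Knockdown libraries lay below controls at each temperature, with a call at 29 °C (log2 fold change -0.53 ± 0.16 SE, adjusted p = 0.0292) and none at 18 °C (log2 fold change -0.49, adjusted p = 0.0609).

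Library 2 of the control flies at 29 °C also held 211 CPM of Act88F, the actin of the flight muscle, where the other 11 libraries held 0 to 7.96 CPM. The 4 muscle genes summed to 2492 CPM in it, against 1822 and 1736 CPM in its 2 fellow libraries. In the 6 libraries at 18 °C they summed to 3282 to 4897 CPM, with GstS1 at 65.9 to 105 CPM. The part of muscle in the GstS1 value of control 29 °C library 2 was not tested. Without that library the rise of GstS1 in control flies (log2 fold change 0.088, adjusted p = 0.505) and the knockdown call at 29 °C (-0.17, 0.283) were lost. The rise in knockdown flies (0.41, 0.00106) and the fall with the knockdown at 18 °C (-0.49, 4.93e-04) passed the threshold. The rise in control flies was also lost without control 18 °C library 1 (0.103) or 2 (0.0522). The knockdown call at 29 °C was lost too without knockdown 29 °C library 1 (0.0736), 2 (0.0884) or 3 (0.0745). By DESeq2 no GstS1 comparison passed.

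In the Theta class GstT4, on the X chromosome, was the one gene called. It had 63.4, 54.5 and 65.2 CPM in knockdown flies at 29 °C, against 114, 141 and 112 CPM at 18 °C (log2 fold change -1.003 ± 0.11 SE, adjusted p = 5.53e-07). GstT4 in control flies had 45.1, 55.5 and 60.6 CPM at 29 °C, against 76.5, 88.5 and 88.96 CPM at 18 °C (log2 fold change -0.65 ± 0.11 SE, adjusted p = 9.61e-05). The 29 °C libraries lay below those at 18 °C in both genotypes. At 18 °C the knockdown libraries were all above the controls, 1.44-fold (log2 fold change 0.53 ± 0.11 SE, adjusted p = 0.00178). At 29 °C the genotypes overlapped (log2 fold change 0.18, 95% interval -0.066 to 0.42). The knockdown call was lost without the 3 libraries high in olfactory genes (0.0584). GstT1 (36.7 to 47.5 CPM), GstT2 (13.1 to 19.2 CPM) and GstT3 (14.9 to 26.6 CPM) were called in no comparison, with log2 fold changes of at most 0.29 in size for temperature or knockdown.

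The Zeta class holds neighbours on 3R, GstZ1 and GstZ2, of the type that acts as maleylacetoacetate isomerase in the breakdown of tyrosine. GstZ2 had the largest rise with temperature of all tested members in control flies. It stood at 45.6, 47.7 and 46.7 CPM in knockdown flies at 29 °C, against 17.8, 29.6 and 22.5 CPM at 18 °C, 2.03-fold (log2 fold change 1.02 ± 0.14 SE, adjusted p = 6.84e-06). GstZ2 in control flies had 63.6, 73.1 and 79.4 CPM at 29 °C, against 21.4, 17.2 and 23.3 CPM at 18 °C, 3.56-fold (log2 fold change 1.83 ± 0.13 SE, adjusted p = 6.10e-10). All 29 °C libraries were above all 18 °C libraries. Knockdown libraries at 29 °C were all below the controls (log2 fold change -0.63 ± 0.12 SE, adjusted p = 6.96e-04), while at 18 °C the genotypes overlapped (log2 fold change 0.19, 95% interval -0.14 to 0.51).

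The smaller rise of GstZ2 in knockdown flies was itself called (interaction log2 -0.81 ± 0.19 (SE), adjusted p = 0.0276). GstZ2 and GstE4 were the members lowered in the interaction, 2 of 29 (6.9%; 1 of 27 without GstE4 and GstD11), where 2.31% of all genes tested were called and 0.917% lowered. By edgeR none was raised, where 1.39% of all genes were raised. Of the 29, 3 had a positive interaction at an unadjusted p under 0.05. DESeq2 raised 1, GstE9, and gave 15 of the 29 no adjusted p for the interaction. The GstZ2 interaction was lost without control 18 °C library 2 (0.076) or control 29 °C library 2 (0.0517) or 3 (0.0859). It was lost without knockdown 18 °C library 2 (0.0867) or 3 (0.0622). Nor did it pass without knockdown 29 °C library 1 (0.0623), 2 (0.0512) or 3 (0.0594). Whichever library was left out, its log2 value lay between -0.96 and -0.64.

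GstZ1 was lower in knockdown flies at 18 °C, with 6.76, 7.41 and 8.10 CPM against 19.4, 17.4 and 12.6 CPM in control flies, groups that did not overlap, 2.24-fold (log2 fold change -1.16 ± 0.21 SE, adjusted p = 5.17e-04). At 29 °C it had 11.5, 7.77 and 8.76 CPM in knockdown flies, against 9.38, 14.6 and 11.4 CPM in control flies, groups that overlapped (log2 fold change -0.34, adjusted p = 0.306). It fell at 29 °C in control flies (log2 fold change -0.51 ± 0.18 SE, adjusted p = 0.0347), with 1 library of each temperature inside the other's range. The change in knockdown flies was not called (0.32, adjusted p = 0.31). The fall in control flies was lost by DESeq2 (0.134) and without control 18 °C library 1 (0.172) or 2 (0.1). It was lost also without control 29 °C library 1 (0.161) or 3 (0.0979).

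Some of these calls also ended in other settings. Leaving out the 3 libraries high in olfactory genes ended the fall of GstZ1 in control flies (0.177) and the rise of GstE6 in knockdown flies (0.276). It ended the knockdown calls of GstE9 (log2 fold change -0.15, adjusted p = 0.542) and GstE11 (0.178) at 18 °C, and the interaction of GstZ2 (-0.53, 0.423). It left the calls of GstE7 at 18 °C (-1.04) and of GstE9 for temperature in knockdown flies (-0.42) with larger log2 fold changes. Control 18 °C library 2 and knockdown 29 °C library 1 were the lowest of their groups in roX1, a non-coding RNA of male dosage compensation (54.2 and 113 CPM). Knockdown 18 °C libraries 1 and 3 held less roX1 than that knockdown 29 °C library (102 and 110 CPM) and were kept. Without control 18 °C library 2 and knockdown 29 °C library 1, calls were lost for the temperature effect on GstS1 (0.0597) and GstZ1 (0.0874) in control flies. The call was lost under the same setting for other effects. It was lost for the temperature effect on GstE9 (0.103) and GstO1 (0.0633) in knockdown flies. Lost too were the calls for the knockdown effect on GstD9 (0.134), GstO1 (0.0693) and GstS1 (0.0673) at 29 °C. At 18 °C the knockdown calls were lost for GstE7 (0.0556), GstE9 (0.0632) and GstE11 (0.101), and so was the interaction of GstZ2 (0.137). The knockdown call of GstE4 at 18 °C was lost by DESeq2 (0.0645), and the rise of GstS1 in control flies with library totals alone (0.0837).

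Other genes of glutathione metabolism were taken as a list of 22 tested genes. At 29 °C against 18 °C, 4 rose and 8 fell in knockdown flies, and 4 rose and 9 fell in control flies. That is 54.5% called in knockdown flies and 59.1% in control flies, beside 35.5% and 38% of all genes tested. Ef1gamma, a translation elongation factor with a transferase-like domain, rose by a like log2 amount in knockdown (0.83 ± 0.089, adjusted p = 2.62e-07) and in control flies (0.83 ± 0.088, adjusted p = 2.37e-07). The regulator maf-S rose by 0.61 ± 0.075 in knockdown (adjusted p = 2.02e-06) and by 0.69 ± 0.074 in control flies (adjusted p = 2.54e-07). Its partner cnc and Keap1 were called in no comparison. GSS, named for glutathione synthetase, had 124, 112 and 109.5 CPM in control flies at 29 °C, against 67.1, 64.7 and 65.4 CPM at 18 °C, with no overlap (log2 fold change 0.81 ± 0.085 SE, adjusted p = 1.96e-07), and rose in knockdown flies too (log2 fold change 0.50 ± 0.085 SE, adjusted p = 1.04e-04). PHGPx, a glutathione peroxidase, fell in knockdown flies, with 169.9, 161 and 172 CPM at 29 °C against 232, 245 and 228 CPM at 18 °C, again with no overlap (log2 fold change -0.48 ± 0.073 SE, adjusted p = 2.37e-05). It fell in control flies too (log2 fold change -0.57 ± 0.073 SE, adjusted p = 2.63e-06). The list also holds Eip71CD under glutathione synthesis, although it is a methionine sulfoxide reductase. Its call in control flies lay at the threshold (adjusted p = 0.0491, 0.109 by DESeq2) and was lost in 11 of 20 other settings.

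For the knockdown, none of the 22 rose and 3 fell at 29 °C, where 1 was raised at an unadjusted p under 0.05 and none by DESeq2, and 1 rose and 6 fell at 18 °C. The 13.6% called at 29 °C lay near the 14.7% of all genes tested, and 31.8% were called at 18 °C, beside 14.1% of all genes tested. MRP, an exporter of glutathione conjugates, fell at both temperatures. It had 32.4, 31.4 and 32.99 CPM in knockdown flies at 29 °C, against 54.9, 47.9 and 48.1 CPM in control flies at 29 °C (log2 fold change -0.64 ± 0.10 SE, adjusted p = 1.25e-04). At 18 °C MRP had 34.9, 29.6 and 40.1 CPM in knockdown flies, against 49.03, 54.4 and 56.3 CPM in control flies (log2 fold change -0.59 ± 0.10 SE, adjusted p = 3.44e-04). The genotypes did not overlap at either temperature. Trx-2, a thioredoxin, fell at 29 °C (log2 fold change -0.31 ± 0.087 SE, adjusted p = 0.0194). That call was lost without control 29 °C library 1 (0.0602) or 3 (0.0764) or knockdown 29 °C library 1 (0.0951), and without the 2 libraries chosen for roX1 (0.095).

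Gclm and Mgstl showed a temperature effect that differed between genotypes, and they were the 2 of 22 genes of the list raised in the interaction, where 1.39% of all genes tested were raised. Gclm, the modifier subunit of the enzyme that starts glutathione synthesis, had 155, 139 and 141 CPM in knockdown flies at 29 °C, against 132, 136 and 118 CPM at 18 °C. Gclm in control flies had 165, 161 and 155 CPM at 29 °C, against 203, 215 and 221 CPM at 18 °C. Control libraries at 18 °C were above all others. The knockdown lowered it at 18 °C (log2 fold change -0.73 ± 0.081 SE, adjusted p = 1.32e-06). The interaction was 0.59 ± 0.11 (SE, adjusted p = 0.00536; 0.0841 without the 3 libraries high in olfactory genes). Mgstl, the microsomal glutathione S-transferase, had 425, 421 and 419 CPM in knockdown flies at 29 °C, against 462, 468 and 401 CPM at 18 °C. Mgstl in control flies had 439, 453 and 459 CPM at 29 °C, against 636, 651 and 675 CPM at 18 °C. Here too control libraries at 18 °C were the highest (log2 fold change -0.56 ± 0.076 SE, adjusted p = 1.72e-05, knockdown at 18 °C). Its interaction of 0.47 ± 0.11 (SE, adjusted p = 0.0218) was lost without control 18 °C library 1 (0.0505) or 3 (0.0617) or control 29 °C library 1 (0.0603) or 3 (0.0503). It was lost as well without knockdown 18 °C library 3 (0.0672) or knockdown 29 °C library 1 (0.0506) or 3 (0.0541). Without the 3 libraries high in olfactory genes its adjusted p was 0.255, and without the 2 libraries chosen for roX1 it was 0.0619.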

How the data were processed

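The authors deposited raw counts of reads per gene and library, and these were the input. Per the labels' protocols, DNase-treated RNA from heads was fragmented and a linker was ligated before 3' end libraries were made. STAR and TopHat2 are named, with dm3 as the genome build, per the submitters' processing notes. Their roles and versions, and the annotation, strand setting and program used for counting, are not given in the sources used here, so overlapping genes cannot be told apart.

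Groups and replicate numbers came from the labels (4 groups of 3 libraries). Every row named a gene, and no count column lacked a listed sample. Genes were filtered with filterByExpr of edgeR 4.0.16 in R 4.3.3 (minimum count 10, minimum total 15). After TMM scaling, 1 quasi-likelihood model with 4 group means was fitted to the 12 libraries. Benjamini-Hochberg adjustment ran over all 9056 genes tested, and 0.05 was the threshold. Each SE was derived from the F statistic. For CPM, TMM-scaled library sizes were used, on which 3 counts equal 0.407 to 1.01 CPM. The interaction subtracts the temperature effect (log2) of control flies from that of knockdown flies. The 95% intervals of count ratios cover counting error alone, because without molecular identifiers 2 reads can stem from 1 molecule.

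All 35 symbols matched the RefSeq table of the Release 6 assembly, which was used for names, gene order and overlaps; its coordinates were not used. No sequences are shown. The members, gene lists and alternatives were chosen with earlier results of these data known. Values per library are given for members called in at least 1 comparison, and, in the list of glutathione genes, values for up to 4 called genes per comparison with the smallest adjusted p; Eip71CD, cnc, Keap1 and the olfactory sum without Obp19d were chosen after their values were seen. Alternatives were other scalings, DESeq2 1.42.0, no filter, the compared libraries alone, a replicate block, and libraries left out. The 2 deposited H3K4me3 peak lists from another strain were not used here.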

Additional observations from a re-analysis of the deposited data

Results flagged for a closer look

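For GstE4 the fitted temperature effect differed between knockdown and control flies: the interaction was -5.25 on the log2 scale (SE 1.27, edgeR adjusted p = 0.032), resting on 3 counts at 29 °C and 89 at 18 °C in knockdown flies, and 19 and 20 in control flies. In knockdown flies every 29 °C library lay below every 18 °C library, and in control flies the temperatures overlapped. GstE4 passed the filter on low counts through knockdown flies at 18 °C, its highest group, so the interaction is no independent test of that level. With knockdown 18 °C libraries 2 and 3 and control 29 °C library 1 left out the interaction was -2.11, and knockdown flies at 18 °C were then 1 library.

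For GstZ2 the temperature effect also differed between genotypes, with an interaction of -0.81 on the log2 scale (SE 0.19, edgeR adjusted p = 0.0276). The rise at 29 °C was 2.03-fold in knockdown flies and 3.56-fold in control flies, and both were called. Over the settings tried, the adjusted p of the interaction lay between 0.00014 and 0.423, and its sign was negative in each.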

How the results depend on the processing

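No member or list gene changed direction in any called comparison under the alternatives tried. Of 49 calls on members, 33 held in every alternative; the 16 that did not are given with the genes, and their causes were not tested. With library totals alone the median log2 fold change of all genes moved by -0.14 for temperature in knockdown flies and by less than 0.1 elsewhere; the raised share of calls was then 27.4% (46.9% with TMM) for temperature in knockdown flies, 33.8% (47.8%) in control flies and 29.7% (48.6%) for knockdown at 29 °C. Under that scaling, over all genes, 910 were raised for temperature in knockdown flies and 373 for knockdown at 29 °C. Genes lowered for temperature in knockdown flies numbered 2415 (1709 with TMM). Of the members, 3 rose and 15 fell for temperature in knockdown flies (4 and 10 with TMM), and 5 and 11 in control flies (6 and 10). For the knockdown, 3 members rose and 8 fell at 18 °C (3 and 6), and 1 and 7 at 29 °C (1 and 7). By DESeq2, 417 genes rose for knockdown at 29 °C. For the interaction, DESeq2 raised 1 and lowered 1 member, but it gave 15 of the 29 members no adjusted p. Without the filter on low counts 1 member was raised in the interaction, with 254 genes raised and 169 lowered over all. Without the 3 libraries high in olfactory genes, 806 genes rose and 1048 fell for temperature in knockdown flies, 268 rose (1 member) and 291 fell for knockdown at 18 °C, and 42 rose and 38 fell (no member; 2 in the fit of all libraries) in the interaction. Without control 18 °C library 2 and knockdown 29 °C library 1, each the lowest of its group in roX1, 4 members fell for knockdown at 29 °C and 3 at 18 °C, and 1 member and 44 genes fell in the interaction.

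With each library left out in turn, members raised and lowered numbered 3 to 5 and 8 to 10 for temperature in knockdown flies, 5 to 6 and 9 to 10 in control flies, 1 and 4 to 7 for knockdown at 29 °C, 3 and 3 to 7 at 18 °C, and 0 to 1 and 0 to 2 in the interaction. Over all genes these were 1222 to 1537 and 1434 to 1715, 1395 to 1728 and 1523 to 1809, 388 to 691 and 463 to 727, 462 to 598 and 510 to 683, and 76 to 169 and 42 to 84.

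The replicate numbers did not pair the libraries: same-numbered libraries of different groups had correlations of -0.113 to 0.027 of their deviations, and 0 of 12 correlated best with their own number. With the replicate block, members raised and lowered were 3 and 11 for temperature in knockdown flies, 6 and 9 in control flies, 1 and 7 for knockdown at 29 °C, 3 and 5 at 18 °C, and 0 and 2 in the interaction. Values below about 1.01 CPM, 3 counts in the smallest library, rest on few reads, and a limit of detection was not tested.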
